A study of Homo sapiens with 6 samples.

Results

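Chromosome 18 was described as 3742 bins of 20 kb that were present in the compartment tracks of both cell lines, out of 140474 shared bins in the series (2.66%). They make up 74.84 Mb between positions 20001 and 78020000 of the human build hg19. The chromosome also held 104 of the 4289 domains listed for HCT116 and 36 of the 1823 listed for DKO1. All bins and domains of the chromosome were taken, whatever their values, and they were examined by arm and in fixed windows of 5 Mb. Chromosomes 17, 19 and 20, which are of similar size, served as reference, with 3860, 2790 and 2987 shared bins.

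The data are Hi-C maps, in which cross-linked chromatin is cut, ligated and sequenced so that pairs of loci that lie close in the nucleus can be counted. HCT116 is an established human colorectal cancer line, and DKO1 is a line derived from it in which the genes of the DNA methyltransferases DNMT1 and DNMT3B were knocked out. Each line was represented by 3 libraries, which the labels tie to 1 compartment track and 1 domain list per line. No treatment or time point is given, and the labels name HCT116 as the cell line of all 6 libraries. As background, DKO1 is a clonal line, lacks most DNA methylation and keeps a shortened form of DNMT1, so clonal differences between the lines cannot be told apart from the loss of the enzymes. HCT116 is also known to carry a derivative chromosome 18 with material of 17q joined to the end of its short arm.

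Chromosomes fold into compartment A, which is open, gene-rich and replicates early, and compartment B, which is compact, often lies at the nuclear lamina and replicates late. Within these, topologically associating domains are stretches that contact themselves more than their surroundings, and their borders often coincide with binding of the insulator protein CTCF. Chromosome 18 is a textbook case of a gene-poor chromosome that lies near the nuclear periphery, while chromosome 19, of similar size, is gene-dense and lies in the interior. Its long arm carries SMAD4, a mediator of TGF-beta signalling, and DCC, a netrin receptor, in a region that is often lost in colorectal cancer.

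The label of a gene-poor chromosome was checked on the RefSeq gene table of the build GRCh38.p14. That table listed 270 protein-coding genes on chromosome 18, the 2nd lowest number among the 22 autosomes. It listed 1169 on chromosome 17, 1451 on chromosome 19 and 537 on chromosome 20. Positions of genes on hg19 were not used here, so regions are given by position and without genes.

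The compartment of a bin was read from the sign of PC1, the leading principal component of the contact map, with positive values for A. Both deposited tracks were scaled on chromosome 18 to a mean of 0 with unit SD, so PC1 is given in SD units of the chromosome. A fall in one place is therefore balanced by a rise elsewhere, and levels cannot be set against those of other chromosomes. With 1 pooled track per line there is no replicate error, and differences are between these maps, without a test.

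Less of chromosome 18 lay in compartment A in DKO1 than in HCT116, and most of the bins that switched went from A to B. In HCT116 57.5% of bins were in A, and in DKO1 46.0%. A switch from HCT116 A to DKO1 B was seen in 511 bins, or 13.7% of the chromosome and 10.22 Mb, against 10.2% of all shared bins of the series. The opposite switch took 81 bins, or 2.16% and 1.62 Mb, where the series had 4.99%. Series values, here and below, also take in bins and domains outside the 22 autosomes. Over the autosomes the median share was 7.41% from A to B and 3.85% from B to A. Among HCT116 A bins 23.8% were B in DKO1, and among HCT116 B bins 5.09% were A.

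The shares of both switches depend on where 0 is set. The median PC1 of the chromosome was 0.22 in HCT116 and -0.14 in DKO1. Subtracting each median puts 50% of bins in A in both lines and so makes the numbers of both switches equal by construction, and says nothing of their balance. With it 456 bins switched in place of 592, or 6.09% of the chromosome in each direction. The median difference in PC1 was -0.67 over the 511 A-to-B bins and 0.69 over the 81 B-to-A bins, and 421 of the 592 differed by at least 0.5. Most nonetheless lay within 0.5 of 0 in at least one line. In 2395 bins PC1 was 0.5 or more from 0 in both lines, and 16 of them went from A to B, which is 0.67% against 1.51% in the series. From B to A there were 0 of 2395, against 0.820% in the series.

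Both arms differed in the same direction. The short arm, with 769 bins, had 52.9% in A in HCT116 and 42.3% in DKO1. The long arm, with 2973 bins, had 58.6% and 46.9%. From A to B went 11.6% of short-arm bins and 14.2% of long-arm bins. From B to A the shares were 0.91%, which was 7 bins, and 2.49%, which was 74 bins. Across bins PC1 of the lines correlated with a Pearson r of 0.90 and a Spearman rho of 0.92 over the chromosome, with r = 0.92 on the short arm and 0.89 on the long arm. Neighbouring bins share contacts, so these values are descriptions.

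**Figure D1:**
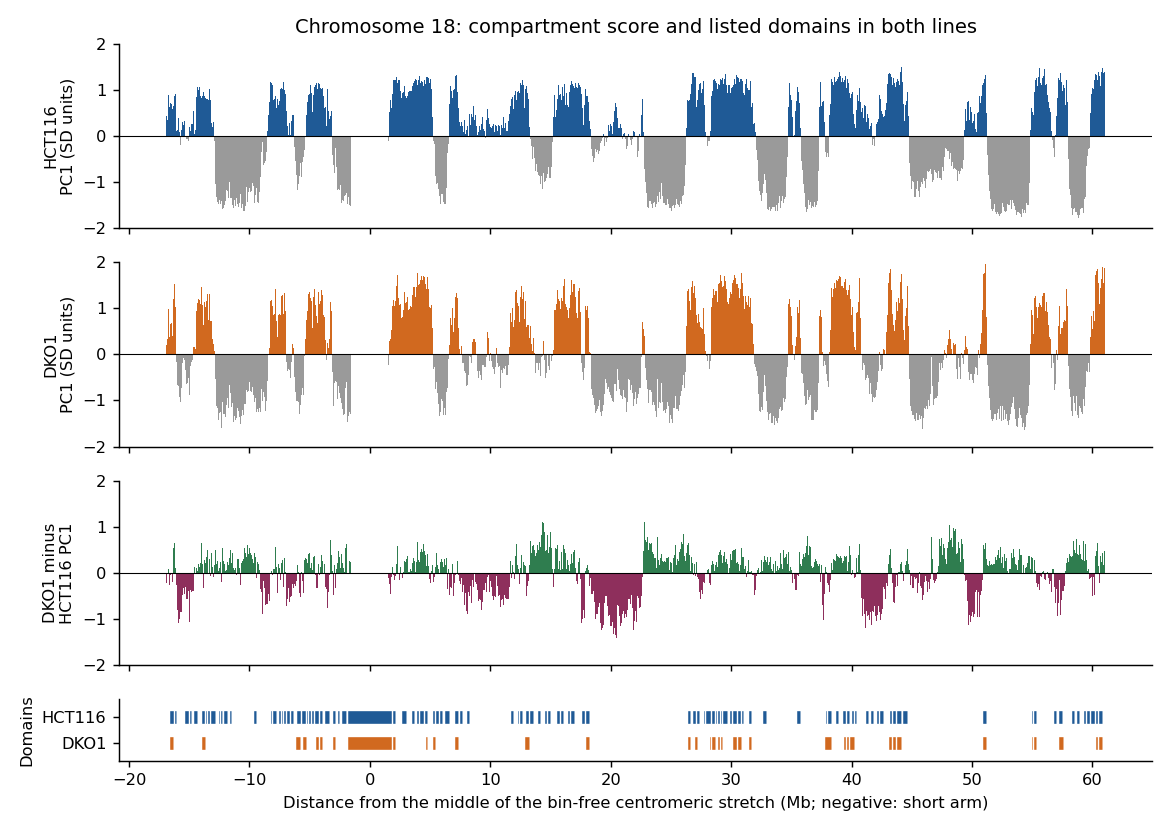
PC1 of each 20 kb bin of chromosome 18 in HCT116 and DKO1, their difference, and the listed domains, against the distance in Mb from the middle of the bin-free stretch at the centromere. Most A and B blocks are shared, while blocks with HCT116 values just above 0 lie below 0 in DKO1, and 36 domains of DKO1 stand against 104 of HCT116.

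The bins that changed sign were mostly those with low positive PC1 in HCT116. Of the 645 HCT116 bins between 0 and 0.5, 438 were B in DKO1, or 67.9%. These made up 74.0% of all switched bins on the chromosome. Bins between 0.5 and 1 switched in 10.2% of cases, and none of the 788 bins above 1 did. In B, 14.2% of the bins between -0.5 and 0 and 9.52% of those between -1 and -0.5 switched, but only 2 of the 925 below -1. A bin near 0 needs only a small difference to change sign, so a high share near 0 is partly given by the way switches are counted.

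The distribution of values is split at the same 0, so it restates the net switch from A to B and is no separate support. Between 0 and 1 lay 1362 bins in HCT116 and 823 in DKO1. Between -1 and 0 lay 667 and 1187 bins. Above 1 the number was higher in DKO1, at 897 against 788, and below -1 it was lower, at 835 against 925. The middle of the range thus lay mainly on the A side in HCT116 and mainly on the B side in DKO1. Within HCT116 classes, bins above 1 had a mean of 1.18 in HCT116 and 1.30 in DKO1, and those between 0 and 0.5 had means of 0.24 and -0.21.

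Low positive values were also found on the other autosomes. Bins between 0 and 0.5 in HCT116 made up 17.2% of chromosome 18, the 6th highest share of 22, where the median over autosomes was 13.9%. Their share that was B in DKO1, 67.9%, was the highest of the 22 autosomes, which had a median of 42.2%. Chromosome 20 followed with 59.1%, and chromosomes 17 and 19 had 29.5% and 37.0%. The class is set in SD units around the 0 of each chromosome, so the rank can move with a shift of the whole track. Going from HCT116 to DKO1, the median of chromosome 18 moved from 0.22 to -0.14, and that of chromosome 20 from 0.31 to -0.13. For chromosomes 17 and 19 the medians moved less, from 0.33 to 0.26 and from 0.43 to 0.30. What part these shifts have in the rank was not tested. No test of these differences was possible with 1 map per line.

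**Figure D2:**
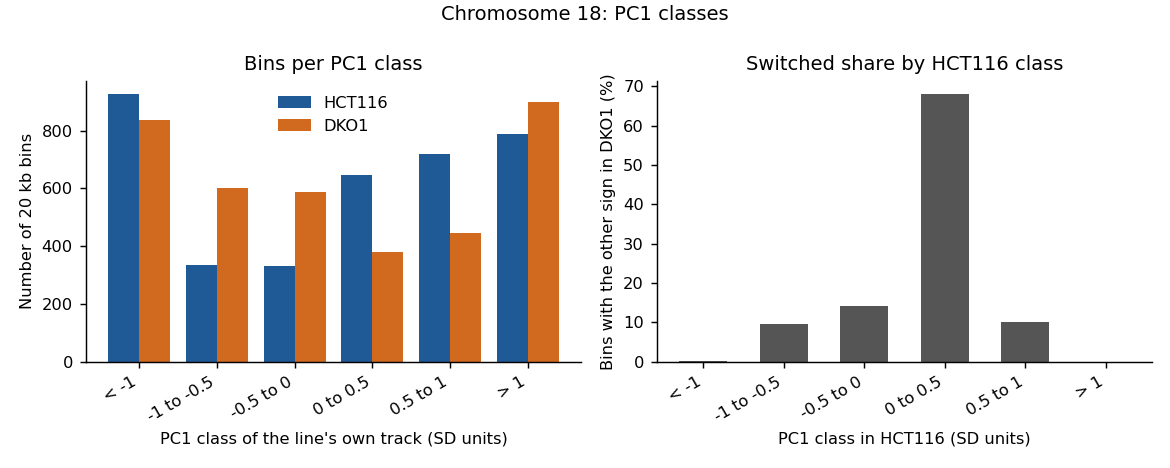
Left, the number of 20 kb bins of chromosome 18 in each class of PC1 (SD units), in HCT116 and in DKO1. Right, the percentage of bins of each HCT116 class that had the other sign in DKO1, which reached 67.9% between 0 and 0.5 and was 0 above 1.

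In 5 Mb windows the A-to-B switches were concentrated. Of the 16 windows, 13 had a smaller share of A in DKO1, 2 a larger one and 1 the same. The 3 windows with most A-to-B bins held 59.1% of them, or 6.04 Mb. The median switched share over windows was 7.65%. Within 15 of the 16 windows PC1 correlated between the lines with an r of at least 0.8.

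The window from 25 to 30 Mb had the highest switched share, 52.8%, with every switch from A to B. Bins in A made up 96.8% of it in HCT116 but 44.0% in DKO1, while r was 0.93. The window means of PC1 were 0.44 in HCT116 and 0.16 in DKO1, but DKO1 was not lower over the whole window. The DKO1 A interval at 28500001 to 30380000, which begins in this window and ends beyond it, had means of 0.79 in HCT116 and 0.88 in DKO1. The limits of this interval were set by A in DKO1, which favours a higher DKO1 mean. On a grid shifted by 2.5 Mb the highest share of any window was 42.7%. The core of this change was a stretch at positions 25200001 to 28560000 in which neither line had a listed domain. There PC1 was 0.25 ± 0.15 (SD over 168 bins) in HCT116 and -0.17 ± 0.27 in DKO1, and 165 of the 168 bins were lower in DKO1. Its share of A was 97.0% and 22.6%, and r within it was 0.71. Neither line was far from 0 in this stretch.

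The window from 35 to 40 Mb came next with 40% and had the lowest correlation of the 16 windows, with r = 0.30. Bins in A made up 45.6% in HCT116 but 11.2% in DKO1. In DKO1 a single B interval ran from 35280001 to 39500000, or 4.22 Mb, with a mean PC1 of -0.88 ± 0.24 over 211 bins. In HCT116 the same bins wavered around 0, with a mean of -0.02 ± 0.27 and 43.6% of them in A. All 211 were lower in DKO1, but the limits of the interval were set by B in DKO1, which favours lower DKO1 values. The interval lies inside the longest stretch of the chromosome without a domain in either line, at 35160001 to 43240000, or 8.08 Mb.

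In the window from 55 to 60 Mb 30.8% of bins switched, all from A to B, with 93.2% of bins in A in HCT116 against 62.4% in DKO1. These switches lay in its distal part. From 57120001 to 60000000, 91.0% of bins were A in HCT116 and 38.2% in DKO1, with mean PC1 of 0.46 and -0.11. The same stretch held 5 HCT116 domains, all in A, and 0 DKO1 domains. One of the longest A intervals of DKO1, at 55100001 to 57760000, takes up the proximal part and reaches into that stretch. It had means of 0.99 in HCT116 and 1.19 in DKO1, so PC1 was not lower in DKO1 over the whole window. Its limits were set by A in DKO1, which favours a higher DKO1 mean.

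After subtraction of the medians these windows kept more A-to-B than B-to-A bins, which their choice by switched share favours. The shares were 16.4% and 4.80% from 25 to 30 Mb, 14.0% and 5.2% from 35 to 40 Mb, and 23.6% and 1.60% from 55 to 60 Mb. Both switches are equal in number over the chromosome with medians subtracted, so other windows went the other way. Among them, A-to-B and B-to-A shares were 5.6% and 19.2% from 30 to 35 Mb and 0% and 12% from 60 to 65 Mb. From 65 to 70 Mb they were 13.2% and 18%. This comparison was added after seeing the values. The short-arm end, where the 17q material is joined in HCT116, had 22.1% switched bins from 0 to 5 Mb, and there A-to-B and B-to-A shares became 6.43% and 5.62% with the medians subtracted.

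Switches from B to A were few, with 31 of the 81 bins from 65 to 70 Mb and 21 from 30 to 35 Mb. From 65 to 70 Mb 12.4% of bins went from B to A and 18% from A to B, with r = 0.81. From 30 to 35 Mb the shares were 8.40% and 6%, and mean PC1 was higher in DKO1, at 0.54 against 0.26. The window from 60 to 65 Mb had 4.80% B-to-A and no A-to-B bins. In 7 of the 16 windows there was no B-to-A bin.

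Few bins changed sign in some windows. The lowest switched shares were 0% over the 96 bins of the window from 15 to 20 Mb, which holds the centromere, 0.66% from 75 to 80 Mb and 1.20% from 40 to 45 Mb. In these, r was between 0.96 and 0.98. PC1 itself still differed there. From 75 to 80 Mb its mean was 0.03 in DKO1 against -0.27 in HCT116, a difference about as large as that from 25 to 30 Mb, and from 40 to 45 Mb it was -0.34 against -0.59.

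**Figure D3:**
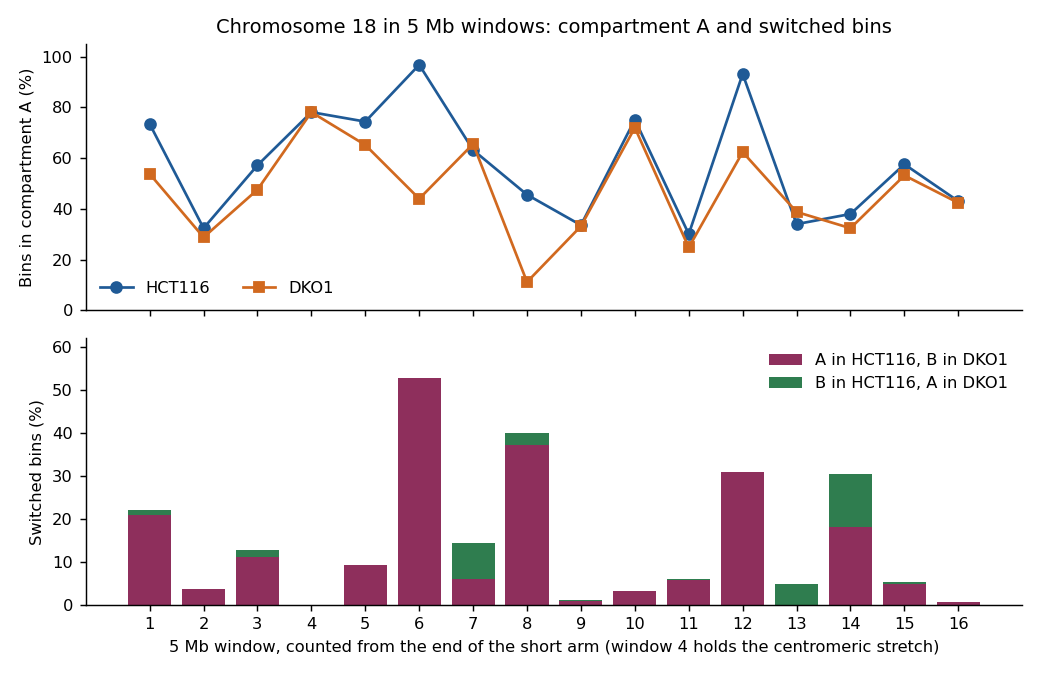
Top, the percentage of bins in compartment A in HCT116 and DKO1 in the 16 windows of 5 Mb of chromosome 18, counted from the end of the short arm. Bottom, the percentage of bins switched in each direction, with 52.8% in window 6 (25 to 30 Mb), 40% in window 8 (35 to 40 Mb) and 30.8% in window 12 (55 to 60 Mb).

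Consecutive bins switched the same way formed 59 A-to-B runs and 22 B-to-A runs. Of the A-to-B runs 14 were at least 200 kb long, 4 on the short and 10 on the long arm, and they held 73.6% of the A-to-B bins. Of the B-to-A runs 2 were that long. Runs that touched a bin already in the new compartment in HCT116 held 65.4% of A-to-B bins, and the other 34.6% formed new B within A. For B to A the shares were 27.2% and 72.8%, over 81 bins in all.

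The longest A-to-B run, at 36680001 to 37880000, was 1.20 Mb long and also had the largest difference among runs of at least 200 kb. It was an A interval of HCT116 inside the 4.22 Mb B interval of DKO1, with means of 0.29 and -0.79, a difference of -1.08 ± 0.22 (SD over 60 bins). The other A-to-B run that passed the strength rule (80% of bins above 0.5 in absolute PC1 in at least one line) lay at 58900001 to 59240000, with means of 0.33 and -0.62. One more A-to-B run, at 34500001 to 34780000, had a difference of -0.98 and formed a new B interval between strong A: the 200 kb on its sides had means of 1.04 and 0.89 in HCT116 and 1.01 and 0.87 in DKO1. HCT116 had 1 domain touching this run, and DKO1 had 0.

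Both long B-to-A runs lay close together on the distal long arm. The run at 64840001 to 65260000 went from -0.42 to 0.28, and the run at 65360001 to 65600000 from -0.68 to 0.27. They fall inside the longest B interval of HCT116, at 61700001 to 66300000, of which 18.7% was A in DKO1. No domain of either line touched them. With medians subtracted the differences were 1.06 and 1.31 in place of 0.70 and 0.95.

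Further along the arm, at 66620001 to 67440000, a run of 820 kb went the other way, from 0.40 to -0.43. It formed new B within an A interval, and no domain of either line touched it.

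The longest intervals show which parts of the chromosome were shared. The A interval at 45200001 to 48960000 in HCT116 was 95.7% A in DKO1, with means of 1.04 and 1.25. The A interval next to the centromere on the long arm, at 18500001 to 22200000, was 99.5% A in DKO1, with means of 1.05 and 1.19. Between them, the A interval at 26540001 to 30260000 had a lower mean of 0.52 in HCT116 and was 54.8% A in DKO1. Of the long B intervals, the one at 68200001 to 71780000 had the same limits in both lines, with means of -1.52 and -1.26. The short-arm one, from 4020001 to 8380000 in HCT116, was 99.1% B in DKO1, with means of -1.23 and -1.08.

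DKO1 had more and shorter intervals, 113 against 75, with median lengths of 160 and 360 kb. Of its 57 B intervals 23 lay wholly in HCT116 A, while 2 of the 37 B intervals of HCT116 lay wholly in DKO1 A. Borders between A and B were mostly displaced: 11 stood at the same position, and of the 72 HCT116 borders 24 had a DKO1 border within 40 kb. The mean step between adjacent bins was 0.068 in HCT116 and 0.094 in DKO1. This ratio of 1.37 was the 2nd highest of the 22 autosomes, and its part in the number of intervals was not tested beyond smoothing over 5 bins, which gave 52 and 77 intervals.

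Domains were fewer in DKO1 on both arms and at nearly the same size. The short arm held 32 domains in HCT116 and 7 in DKO1, and the long arm 71 and 28. In either list the median length was 280 kb, and the middle of the distribution ran from 240 to 360 kb in HCT116 and from 240 to 330 kb in DKO1 (quartiles). In each list 1 further entry, of 3720 and 3760 kb, spanned the stretch without bins at 15400001 to 18480000, where the centromere lies. Without it, HCT116 domains took up 29.36 Mb, or 39.2% of the binned length, and those of DKO1 10.56 Mb, or 14.1%. More deeply sequenced maps can yield more domains, and the depth of these is unknown.

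All domains of DKO1 lay at or beside domains of HCT116. Each of the 36 overlapped HCT116 domains over at least 66.7% of its length, and 29 matched one at a reciprocal overlap of at least 80%, or 80.6% (Wilson interval 65.0 to 90.2) against 83.1% over the series. In the other direction 29 of the 104 HCT116 domains were matched, or 27.9% (20.2 to 37.2), where the series had 35.3%. Of the 104, 65 were not touched by any DKO1 domain. The intervals cover counting error only and take domains as independent.

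The 7 unmatched DKO1 domains differed in their limits. The domain at 54680001 to 55240000, the longest of them at 560 kb, touched 2 HCT116 domains, and so did those at 29720001 and 43880001. The other 4 each touched 1.

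Boundaries, taken as the distinct starts and ends of domains, showed the same asymmetry, and they come from the same lists. Of the 61 DKO1 boundaries 55 were found within 40 kb in HCT116, or 90.2% (80.2 to 95.4) against 91.9% in the series. In DKO1, 56 of the 166 boundaries of HCT116 were found, or 33.7% (27.0 to 41.2), where the series had 44.7%. HCT116 boundaries that were found had a median HCT116 PC1 of 0.97, and 89.3% were in A. Those that were not found had a median of 0.41, with 65.5% in A.

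**Figure D4:**
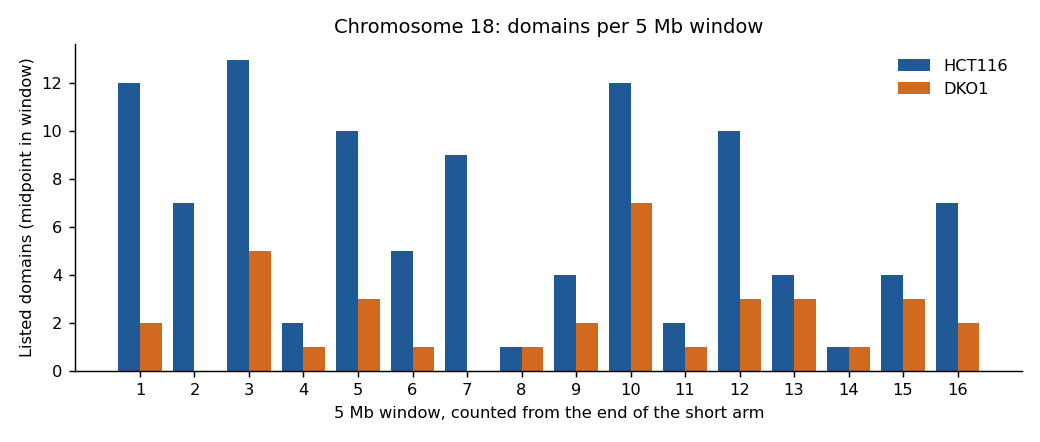
The number of listed domains of HCT116 and DKO1 with their midpoint in each 5 Mb window of chromosome 18, without the entry that spans the centromere. HCT116 had more domains in 14 of 16 windows and as many in 2, and DKO1 had none in windows 2 and 7.

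Domains were placed in windows by their midpoint. HCT116 had most from 10 to 15 Mb, with 13, and from 0 to 5 and 45 to 50 Mb, with 12 each. In DKO1 these windows held 5, 2 and 7. The fewest in HCT116, 1 each, lay from 35 to 40 and from 65 to 70 Mb, where DKO1 also had 1 each. The windows from 5 to 10 and 30 to 35 Mb, with 7 and 9 domains in HCT116, had 0 in DKO1. The DKO1 domains at 29720001 to 30160000 and 34840001 to 35160000 nonetheless reach into the latter window from its sides.

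Nearly all bins that switched lay where DKO1 had no domains for a long distance. In DKO1 11 stretches of at least 2 Mb held no domain, 52.64 Mb in all, and 9 of them held HCT116 domains, 49 in number with 36 in A. In HCT116 there were 6 such stretches, 25.96 Mb in all. The 11 stretches held 564 of the 592 switched bins, and 21.5% of their 2628 bins switched, against 2.51% of the 1114 bins outside them. DKO1 domains had a median PC1 of 1.14 in DKO1, and none of the HCT116 bins above 1 switched; the part of this level in the contrast was not tested. The stretches differed among themselves, from 0% to 56.2% switched, and 5 of the 11 had under 10%, as had 9 of the 16 windows. One of these 5, at 68120001 to 71800000, had no domain in HCT116 either.

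The short-arm stretch at 3240001 to 10760000 held the most HCT116 domains and had few switches. It had 15 HCT116 domains of 160 to 400 kb, 10 in A and 5 in B, and 0 in DKO1. PC1 correlated with r = 0.93 there, 9.57% of bins switched, and the means were -0.45 in HCT116 and -0.39 in DKO1. Next to the centromere on the long arm, at 19040001 to 21520000, all bins were A in both lines, with means of 1.09 and 1.31, and 4 HCT116 domains stood against 0. From 30160001 to 34840000 HCT116 had 8 domains and DKO1 0, although the mean PC1 was higher in DKO1, at 0.52 against 0.22.

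In other stretches DKO1 had neither the domains nor most of the compartment A of HCT116. At 600001 to 2920000 HCT116 had 4 domains, all in A, and 85.3% of its bins were in A against 41.4% in DKO1. At 24240001 to 29720000 it had 5 domains, all in A, and the shares were 97.1% and 40.9%. The stretch at 57120001 described above was of the same kind.

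Domains were denser in A in both lines. With each list set on its own track, 10 Mb of A held 18.1 domains in HCT116 and 8.43 in DKO1, and 10 Mb of B held 8.17 and 1.73. Of the 78 HCT116 domains in A 25 were matched, or 32.1% (22.8 to 43.0), and of the 26 in B 4, or 15.4% (6.15 to 33.5). The intervals overlap. Of the 66 HCT116 domains with a positive mean PC1 in each of the lines 24 were matched, and of the 12 that went from A to B 1 was.

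Matched domains in A had a median HCT116 PC1 of 1.13, and those without a match 0.84. Of the 25 matched ones 19 had a higher PC1 in DKO1, with a median difference of 0.16, and of the 53 unmatched ones 33 did, with a median of 0.05. The HCT116 bins above 1, whether in domains or not, also had a higher mean in DKO1, as given above.

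Chains of domains that abut end to end were shorter in DKO1, whose list is also shorter. What part the shorter list has in this was not tested. In HCT116 24 chains joined 66 of the 104 domains, and the longest, at 44560001 to 46560000, joined 7. In DKO1 9 chains joined 20 of the 36 domains, and none joined more than 3, as at 56200001 to 57120000 and at 60000001 to 61000000. The latter was listed in both lines as a chain of 3 in strong A, with a mean domain PC1 of 1.22 in HCT116 and 1.19 in DKO1. The 7-domain chain of HCT116 was touched by 4 DKO1 domains. In each line the chains include one, at 15040001 to 19040000, that holds the entry spanning the centromere.

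Set beside chromosomes 17, 19 and 20, chromosome 18 had a similar share of A in HCT116 and the lowest in DKO1. In HCT116 the shares were 57.8%, 57.5%, 58.5% and 56.9% on chromosomes 17, 18, 19 and 20. In DKO1 they were 54.7%, 46.0%, 55.1% and 47.4%. The change in percentage points was thus -11.5 on chromosome 18, -9.51 on chromosome 20, -3.19 on chromosome 17 and -3.41 on chromosome 19. Among the 22 autosomes only one had a larger fall, chromosome 7 with a change of -16.2 points.

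The A-to-B share was 4.38% on chromosome 17, 4.44% on 19 and 9.98% on 20, against 13.7% on chromosome 18, the 4th highest of the autosomes. B-to-A shares were lower on all 3, at 1.19%, 1.04% and 0.47%. The correlation between the lines was 0.96 on chromosomes 17 and 19, 0.92 on 20 and 0.90 on 18, the 14th highest of the 22 autosomes.

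Domains were sparser on chromosome 18 than on the 3 reference chromosomes in both lines. HCT116 had 13.9 per 10 Mb of bins on chromosome 18 and 23.96, 29.4 and 24.1 on chromosomes 17, 19 and 20. DKO1 had 4.81 against 11.2 to 16.7. Among the 22 autosomes the density of chromosome 18 was 13th highest in HCT116 and 17th highest in DKO1. The autosomal medians were 16.2 and 7.16, so the 3 reference chromosomes were themselves dense. The DKO1 list was 34.6% as long as that of HCT116, against 53.5%, 56.7% and 46.5% on chromosomes 17, 19 and 20. Of HCT116 domains in A, 51.9% (43.4 to 60.4), 53.9% (44.8 to 62.7) and 50.5% (40.6 to 60.5) were matched on these, against 32.1% (22.8 to 43.0) on chromosome 18. The matched share moves with the number of DKO1 domains, so these values are not independent of the sparser list.

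**Figure D5:**
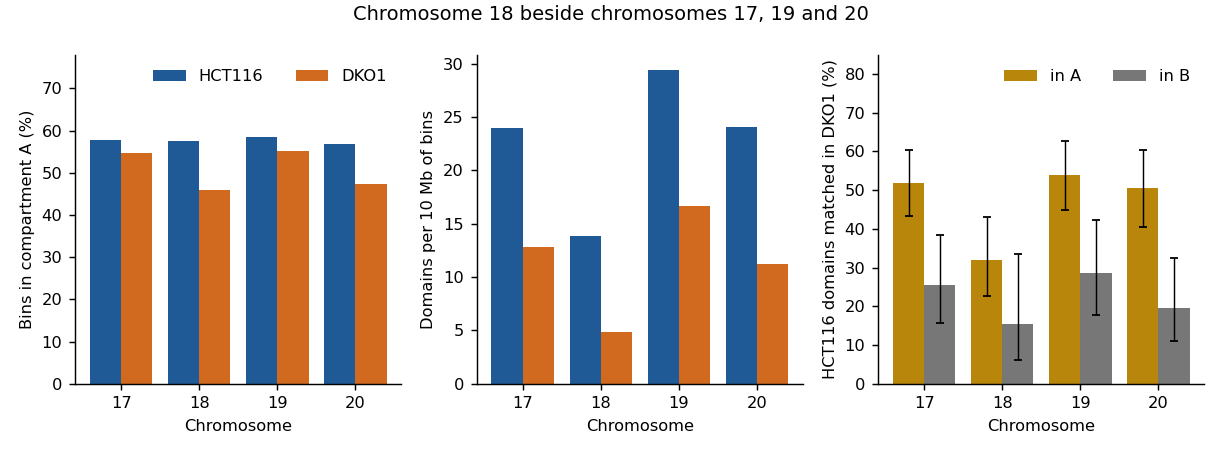
Chromosomes 17, 18, 19 and 20 compared: the percentage of bins in A, the number of domains per 10 Mb of bins, and the percentage of HCT116 domains in A and in B that were matched in DKO1, with 95% Wilson intervals for counting error only. Among those shown, chromosome 18 has the fewest domains per 10 Mb in both lines, 13.9 and 4.81.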

How the data were processed

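The analysis used 1 compartment track and 1 domain list for each of HCT116 and DKO1, on hg19. Since all 3 libraries of a line point to one track and one list in the labels, these were taken as pooled. Per the submitters' processing notes, HiC-Pro and HOMER 4.6 were used, and the caller of the domains is not given in the sources used here. The authors' deposited PC1 score is given per 20 kb bin, and the deposited domain lists hold other values only, positions of domain limits in steps of 40 kb. No counts were used, so depth and precision are unknown.

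Bins were joined by start, and arms were split at the longest stretch without bins. PC1 above 0 was A, otherwise B. Runs were consecutive bins switched the same way. Boundaries were found within 40 kb, and domains matched at 80% reciprocal overlap. The members and lists were chosen with earlier results of these data known. Only runs of 200 kb or more were named: for either direction up to 5 by length, if PC1 was over 0.5 from 0 in a line for 80% of the run (2 and 1 existed), and up to 3 by size of change (2 existed from B to A). Also named were the windows at either end by switched share or domain count, 3 each, and the 3 longest A and B intervals per line. The run at 66620001, the windows with B-to-A switches, the stretches without domains and the switches inside and outside them, the PC1 classes and the chains of domains were added after the values were seen. On simulated data, a copy of the HCT116 track with sign changes planted without noise, 32 of 32 planted runs were recovered over 3742 bins. This checks the code only and not the calling of runs in real tracks. Python 3.11.15, numpy 2.4.6, pandas 2.3.3, scipy 1.17.1 and matplotlib 3.10.9 were used.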

Additional observations from a re-analysis of the deposited data

How the results depend on the processing

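No paired analysis was possible because all libraries of a line share 1 pooled track and list, and for the same reason no replicate could be left out. With a PC1 minimum of 0.5 SD the A share was 55.1% in HCT116 and 54.4% in DKO1, and 0.67% of bins switched to B and 0% to A. With medians subtracted it was 50% in both, and 6.09% switched each way. Centring each arm, smoothing over 5 bins, leaving out 1 Mb at the arm ends and the long arm alone kept these shares within their binomial intervals. Those intervals take neighbouring bins as independent, which they are not, and measure no error between maps. The correlation was 0.89 on the long arm alone. At a tolerance of 0 kb 25.9% of HCT116 and 70.5% of DKO1 boundaries were found, and at 120 kb 96.7% of DKO1 boundaries. At 90% overlap 18.3% of HCT116 and 52.8% of DKO1 domains were matched, and at 50% overlap 94.4% of DKO1 domains. Leaving out entries over 2 Mb gave 103 and 35 domains, and merging overlapping ones gave 97 and 36. The grid shifted by 2.5 Mb gave a median switched share of 10.2% and no window with more domains in DKO1. The 5 named runs, chosen for their size, kept their direction in all 15 alternatives, which says nothing of other switches. With medians subtracted the A-to-B runs at 36680001, 58900001 and 34500001 had differences of -0.72, -0.59 and -0.62. The depth of the maps is unknown, so what it limits could not be measured.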

Other observations

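HCT116 domain boundaries that were found in DKO1 had higher median PC1 in both lines than those that were not. HCT116 boundaries found in DKO1 had medians of 0.97 in HCT116 and 1.04 in DKO1, and those not found had medians of 0.41 and 0.26. The 6 DKO1 boundaries that were not found in HCT116 had medians of 1.00 and 1.20.

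Few A intervals of HCT116 were A over their whole length in DKO1. Of the 38 A intervals of HCT116, 13 lay wholly in DKO1 B, and 3 lay wholly in DKO1 A. Most of the 13 were shorter than 200 kb. A single bin is enough to fail the whole-length rule, as for the interval at 18500001 to 22200000, which was 99.5% A in DKO1. Over bins, 23.8% of HCT116 A was B in DKO1. Of the 37 B intervals of HCT116, 27 lay wholly in DKO1 B. Single bins made up 9 of the 75 intervals of HCT116 and 23 of the 113 of DKO1. Intervals of at least 1 Mb covered 38 Mb of A in HCT116 and 25.68 Mb in DKO1, and for B they covered 27.78 and 31.4 Mb.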
